A study of Mus musculus with 6 samples.

Results

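The SLC25 carriers are the largest family of transporters of the mitochondrial inner membrane. Here they were taken as all genes of the deposited tables whose mouse symbol is Slc25a followed by a number. This gave 47 of 55416 gene identifiers, found by symbol alone and not by any measured value. They were followed by RNA-seq in small intestinal organoids, gel-grown cultures of mouse intestinal epithelium taken from animals aged 4 to 8 weeks. All organoids, controls included, carried Rosa26-rtTA (Tg/Tg) together with Col1A1-TetO-OSKM (also Tg/Tg), so that the tetracycline transactivator rtTA switches on Oct4, Sox2, Klf4 and Myc (OSKM) when doxycycline is given. The 3 groups were a control (labelled Cont, with no vehicle named), 0.1 µg/ml doxycycline and 0.5 µg/ml doxycycline for 3 days, with 2 libraries each. The labels number these libraries as replicates and do not say whether they are separate mice, lines or cultures, so p-values measure the spread between these libraries only. No group analysed here received doxycycline without carrying the cassette, so the drug, which acts on mitochondrial protein synthesis, and the factors cannot be told apart.

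Most of these proteins sit in the inner membrane, where each exchanges a metabolite between the cytosol and the matrix. The family supplies ADP and phosphate to the ATP synthase, moves citrate, malate, amino acids and acylcarnitines, and brings iron, glutathione and cofactors to the enzymes of the matrix. In intestinal epithelium these routes serve energy supply to transport, glutamine and arginine-family amino acid metabolism, and fat handling. The carriers are encoded in the nucleus, made in the cytosol and inserted through the TIM22 complex.

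The libraries held 45289760 to 72547738 expected counts. Myc, the least changed of the 4 induced factor genes, stood 5.62-fold above control at 0.1 µg/ml and 18.8-fold at 0.5 µg/ml. All 7 pan-epithelial markers were present in every library, and their summed level was 4658 to 4778 CPM (counts scaled to library size with TMM factors) in control, 5537 to 5694 CPM at 0.1 µg/ml and 7409 to 7474 CPM at 0.5 µg/ml. They did not move as 1 group: at the high dose 4 rose, with Krt8 going from a mean of 1144 to 3102 CPM and Krt19 from 843 to 1648 CPM, and Epcam, Krt18 and Cldn7 fell by 0.42, 0.87 and 0.26 on the log2 scale. Markers of the cell types within the epithelium also shifted. Of 10 absorptive enterocyte markers 6 rose and 1 fell at 0.1 µg/ml, and 7 fell at 0.5 µg/ml; their sum was 2303 to 2714 CPM in control, 3188 to 4156 CPM at the low dose and 1520 to 1534 CPM at the high dose. Summed goblet markers went from between 3139 and 3430 CPM to between 749.2 and 756.9 CPM at the high dose, and Paneth markers from between 832.9 and 901.2 CPM to between 95.2 and 101.4 CPM. Enteroendocrine markers went from between 273 and 350.1 CPM to between 22.9 and 27.2 CPM, and crypt base stem cell markers from between 458 and 635 CPM to between 49.5 and 55.2 CPM. At 0.1 µg/ml the goblet and Paneth sums were 2375 to 2713 and 259.6 to 322.1 CPM. The enteroendocrine and stem cell sums were 95.06 to 108.4 and 127.2 to 207 CPM there. Already at that dose 5 goblet, 5 Paneth, 6 enteroendocrine and 4 stem cell markers had fallen, and the goblet marker Zg16 had risen. With the high dose 5 of 6 goblet, 5 of 5 Paneth, 6 of 6 enteroendocrine and 4 of 5 stem cell markers fell. The other goblet marker, Zg16, did not pass, and the other stem cell marker, Ascl2, rose by 0.71 on the log2 scale (edgeR adjusted p = 1.20e-04). The fibroblast, immune, endothelial and muscle or fat lists each summed to at most 14.04 CPM in any library, but all 5 of their markers that could be tested rose at 0.5 µg/ml. Summed fibroblast markers were 0.506 to 0.538 CPM in control and 5.73 to 6.46 CPM at the high dose, immune markers 2.13 to 2.65 and 13.5 to 14.0 CPM, and endothelial markers 0.379 to 0.385 and 3.43 to 4.15 CPM. The 5 were Col1a1 (10.2-fold), Cd68 (6.02-fold), Tek (20.9-fold), Dcn (from 0 to 65 and 108 counts) and Ptprc (from 0 to 13 and 14 counts). Markers too low to test went both ways from control to 0.5 µg/ml. Col1a2 went from 4 and 2 counts to 0 and 0, Lyz2 from 8 and 7 to 1 and 0, and Pecam1 from 7 and 14 to 6 and 10. Lum went from 0 to 6 and 10 counts, Pdgfra from 5 and 2 to 14 and 7, and Ucp1 from 1 and 3 to 8 and 11. Single genes made up most of each sum at the high dose. Cd68 held 13.7 and 13.2 CPM there, Tek 4.01 and 3.24 CPM and Col1a1 3.78 and 4.07 CPM. Col1a1 is also the gene named in the Col1A1-TetO-OSKM cassette, and whether its counts come from fibroblasts was not tested. Dcn and Lum of the fibroblasts, Ptprc and Adgre1 of immune cells, Cdh5 and Kdr of endothelium and Adipoq of fat cells had no count in control. Adgre1, Cdh5, Kdr and Adipoq had none at 0.5 µg/ml either, and Col1a2 and Col3a1 of the fibroblasts had none at that dose. The part of these shifts in the carrier results was not tested. In such bulk libraries, fewer cells of a type and less RNA per cell cannot be told apart.

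In TPM (the deposited, length-corrected scale that allows levels of different genes to be compared), the 47 members together summed to 2663 and 2727 in control, to 2899 and 2891 at the low dose and to 2798 and 2844 at the high dose. The family total thus lay slightly higher in every treated library than in either control library. A pair of carriers made up most of it. Slc25a5, the main ADP/ATP exchanger of dividing cells, stood at 944 and 954 TPM in control, 1129 and 1119 TPM at 0.1 µg/ml and 1179.8 and 1172 TPM at 0.5 µg/ml. Slc25a3, which imports phosphate for ATP synthesis, stood at 627 and 651 TPM in control, 675 and 674 TPM at 0.1 µg/ml and 697 and 724 TPM at 0.5 µg/ml. Together they made up on average 58.9% of the family's TPM in control, 62.1% at the low dose and 66.9% at the high dose, with an SD over the 2 libraries of 0.086, 0.12 and 0.29 percentage points. Next in control came the citrate carrier Slc25a1 at 216.6 and 225 TPM and Slc25a39 at 208 and 203 TPM, then Slc25a11 at 76.6 and 80.8 TPM and Slc25a4 at 62.5 and 68.0 TPM. In control the libraries of neighbours in this order, from Slc25a5 down to Slc25a4, did not overlap. At 0.5 µg/ml Slc25a39, Slc25a1 and Slc25a4 held 125 and 119 TPM, 117 and 125 TPM and 109.8 and 121 TPM, so these 3 ranks did not differ beyond the spread. Among the 41 tested members, libraries overlapped for 16 of 40 neighbouring ranks in control, 12 with the low dose and 22 with the high dose.

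**Figure D1:**
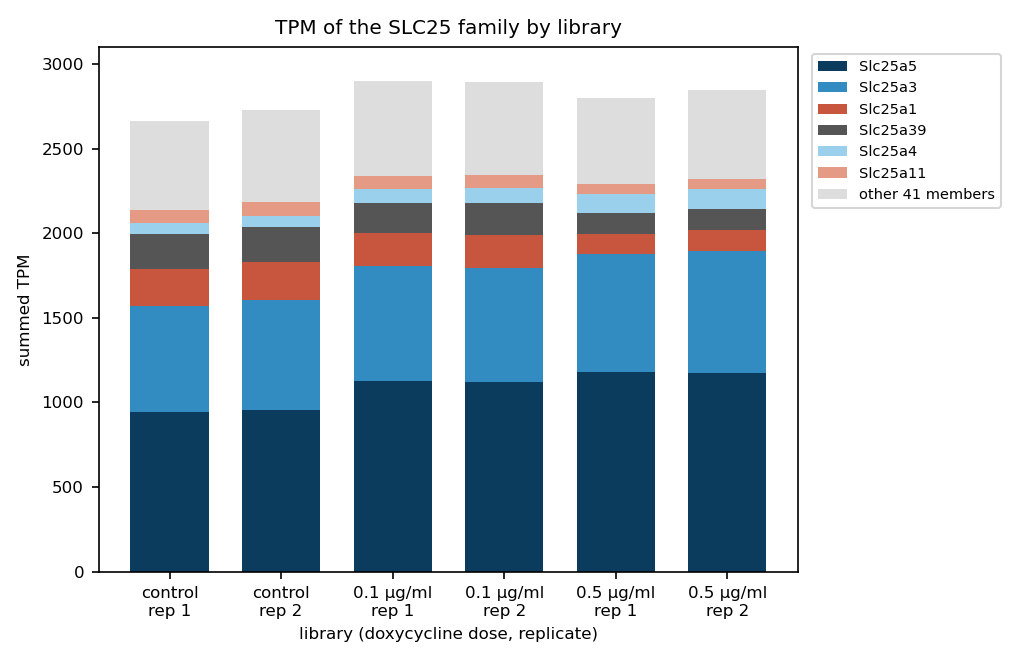
Summed TPM of the 47 SLC25 members in each of the 6 libraries (stacked bars, vertical axis from 0), with the 6 highest members of control in colour and the other 41 in light grey. Slc25a5 and Slc25a3 together make up on average 58.9% of the family in control and 66.9% at 0.5 µg/ml, while the bands of Slc25a1 and Slc25a39 are narrower at the high dose.

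Of the 47 members, 41 passed the low-count filter. The other 6, Slc25a2, Slc25a18, Slc25a21, Slc25a31, Slc25a41 and Slc25a54, had 0 to 9 counts per library and at most 0.21 TPM, too few to show a difference. For 13 members, among them Slc25a5, Slc25a23, Slc25a36, Slc25a37 and Slc25a40, the counts included reads that RSEM divided between genes, so their values are uncertain to that degree. Slc25a31 is the ADP/ATP exchanger of male germ cells and Slc25a18 a glutamate carrier. At 0.5 µg/ml against control 15 members rose, where 34.4% of all tested genes did, and 15 fell, where 33.1% did. In all 30 of 41 members passed the test (edgeR quasi-likelihood, Benjamini-Hochberg adjusted p under 0.05), beside 67.5% of all tested genes. The members' share of 73.2% is near that background and is not read as a result about the family. Their median log2 fold change was 0.05, beside -0.0045 for all tested genes, and their median absolute change was 0.63, beside 0.49 for all tested genes. In the low-dose comparison 15 rose (20.8% of all tested genes did) and 5 fell (13.8%), against 34.6% of all genes called either way. From 0.1 to 0.5 µg/ml 13 rose (29.8%) and 16 fell (29.1%), against 58.9% called either way. The libraries of the groups compared did not overlap for 35 members at the high dose (84.1% of all tested genes), 30 at the low dose (67.7%) and 33 between the doses (80.7%). With upper quartile scaling the split between the doses was 9 higher and 17 lower. Of all 16975 tested genes 4507 were then higher and 5587 lower.

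Most changes were modest. At the high dose 6 of 41 members passed the test with a change of at least 2-fold, where 27.1% of all tested genes did, and at 0.1 µg/ml 1 member did (9.65% of all tested genes). The 6 were Slc25a48, Slc25a38 and Slc25a30, which rose, and Slc25a23, Slc25a27 and Slc25a15, which fell; Slc25a48 was the one at the low dose.

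**Figure D2:**
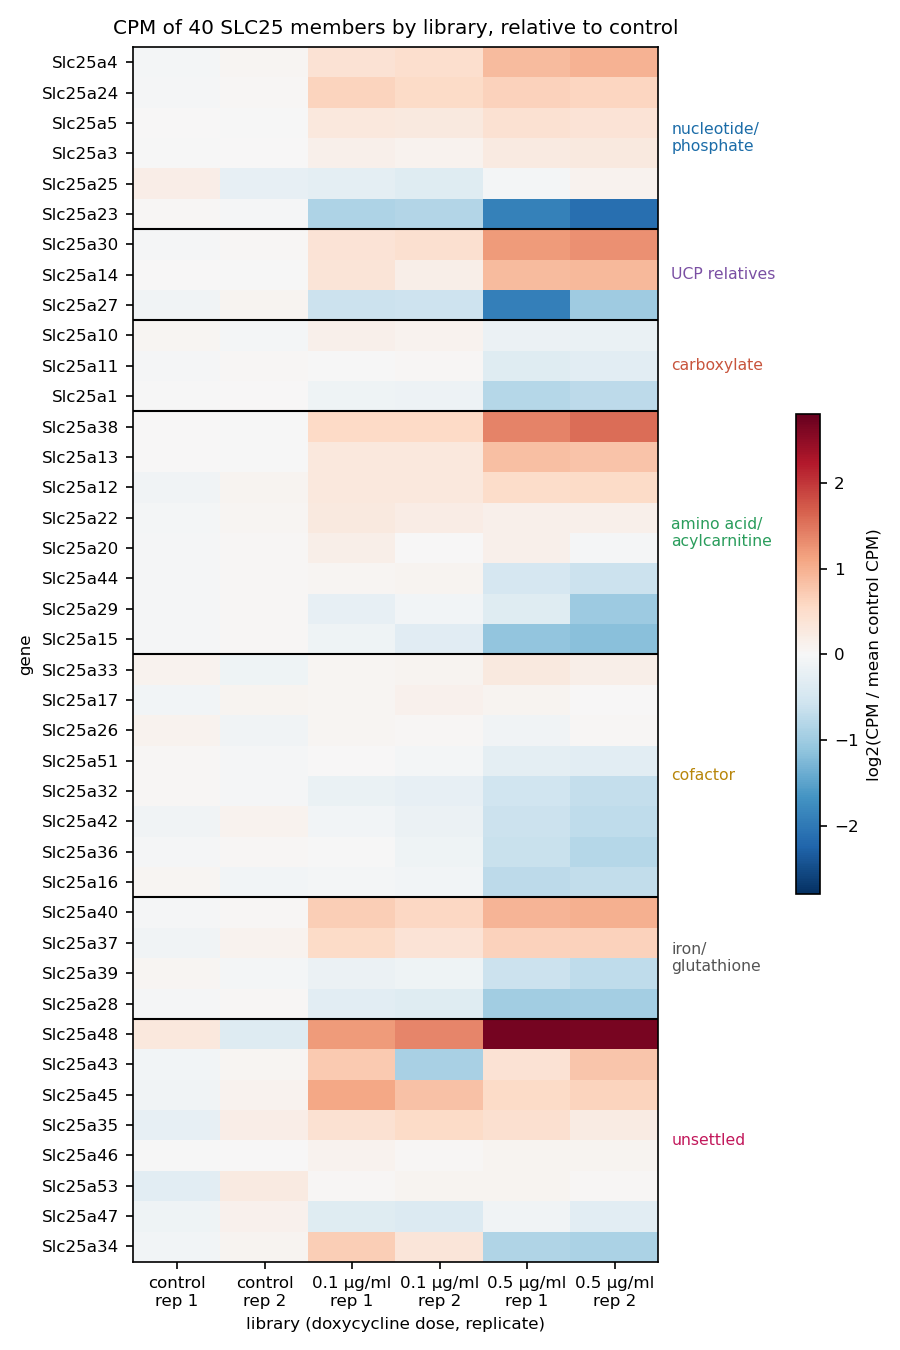
Level of 40 of the 41 tested members in each library as log2 of CPM over the mean CPM of the 2 control libraries (red higher, blue lower), grouped by transport role and ordered within a role by the change at 0.5 µg/ml. Replicates of a dose resemble each other for most genes, and most roles hold both red and blue genes at the high dose.

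Because Myc, an induced factor, binds the E-box CACGTG with its partner Max, the promoter windows of the members were searched for that motif. Windows from 250 bases before to 50 bases after the start were taken from RefSeq (build GRCm38.p6), which held 36 of the 47 members. The motif reads the same on both strands. It was present in 7 of 36 members (19.4%), beside 11.3% of 11459 tested genes with a window and 8.09% of all 27025 genes of the table. It was found in 2 of 13 members that rose at 0.5 µg/ml, 3 of 11 that fell and 1 of 8 that did not pass, so it lay in members of both directions. The remaining match was in Slc25a31, which is among the 36 members but was too low to be tested. The palindromic NRF1 consensus was in 0 of 36 members and in 2.11% of the tested genes, which says only that these letters are not in these windows. A match is a description of the letters only. The 5 stretches below are those of the members that passed the test at 0.5 µg/ml, each 5′ to 3′ on the gene's strand with the E-box in capitals:
Slc25a13: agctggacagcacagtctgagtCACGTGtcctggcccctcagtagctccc
Slc25a14: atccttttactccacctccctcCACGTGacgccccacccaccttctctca
Slc25a1: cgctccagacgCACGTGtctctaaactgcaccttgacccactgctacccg
Slc25a15: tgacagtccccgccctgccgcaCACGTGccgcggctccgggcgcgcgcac
Slc25a36: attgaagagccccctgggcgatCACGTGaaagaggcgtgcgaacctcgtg
The stretch of Slc25a13 lies at chr6:6217271-6217320 on the minus strand, with the motif starting 125 bases before the start site. That of Slc25a14 lies at chrX:48623372-48623421 on the plus strand, 54 or 184 bases before the start depending on which of its RefSeq starts is used. The stretch of Slc25a1 lies at chr16:17928420-17928469 on the minus strand, with the motif 239 bases before the start. Those of Slc25a15 and Slc25a36 lie at chr8:22398327-22398376 on the minus strand and chr9:97111201-97111250 on the minus strand, with the motif 77 and 187 bases before the start. Slc25a13 and Slc25a14 rose at 0.5 µg/ml, whereas Slc25a1, Slc25a15 and Slc25a36 fell.

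Carriers of adenine nucleotides and phosphate mostly rose, with 1 large exception. Of 6 tested, 4 rose, 1 fell and 1 did not pass at 0.5 µg/ml (median log2 fold change 0.33), and the count was the same at 0.1 µg/ml (median 0.20). Of all tested genes 34.4% rose and 33.1% fell at 0.5 µg/ml, and 20.8% rose and 13.8% fell at 0.1 µg/ml. Slc25a4, the ADP/ATP exchanger best known from heart and muscle, stood at 90.4 and 96.6 CPM in control, 124 and 130.0 CPM at 0.1 µg/ml and 172 and 184 CPM at 0.5 µg/ml. Its 3 groups did not overlap, and it rose by 0.93 ± 0.053 on the log2 scale (SE; adjusted p = 1.89e-07) at the high dose and by 0.44 ± 0.052 on the log2 scale (SE; adjusted p = 1.60e-04) at the low dose. Slc25a5 stood at 848 and 835 CPM in control, 1036 and 1011 CPM at 0.1 µg/ml and 1137 and 1097 CPM at 0.5 µg/ml. It rose by 0.41 ± 0.038 on the log2 scale (SE; adjusted p = 6.91e-06) and 0.28 ± 0.038 on the log2 scale (SE; adjusted p = 3.48e-04), a smaller step than that of Slc25a4. The ratio of Slc25a4 to Slc25a5 in TPM was 0.066 and 0.071 in control, 0.074 and 0.079 at the low dose and 0.093 and 0.103 at the high dose, so that Slc25a5 still dominated in every library. The phosphate carrier Slc25a3 stood at 771 and 778 CPM in control, 854 and 835 CPM at 0.1 µg/ml and 925 and 932 CPM at 0.5 µg/ml and rose by 0.26 ± 0.036 on the log2 scale (SE; adjusted p = 1.12e-04) at the high dose. On log2(TPM + 1) its change was 0.15 with limma (adjusted p = 0.0203), and with upper quartile scaling 0.17. At the low dose its change of 0.13 ± 0.036 on the log2 scale (SE; adjusted p = 0.0227) was not called when any 1 of the 6 libraries was left out (log2 fold change 0.10 to 0.12, adjusted p = 0.0695 to 0.169), nor with upper quartile scaling, limma or only the 2 groups compared. Between the doses Slc25a5 and Slc25a3 rose by 0.13 and 0.14. The call for Slc25a5 was lost without replicate 2 at 0.1 µg/ml (adjusted p = 0.0917) or replicate 1 at 0.5 µg/ml (0.113), and that for Slc25a3 without replicate 2 at 0.1 µg/ml (0.0549) or replicate 2 at 0.5 µg/ml (0.0514). Both were also lost with upper quartile scaling (0.076, adjusted p = 0.0949, for Slc25a5 and 0.087, 0.0584, for Slc25a3) and under all 3 limma settings (0.065 and 0.074 on log2(TPM + 1), adjusted p = 0.212 and 0.197).

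The exception was among the ATP-Mg/phosphate carriers, calcium-regulated exchangers that set the adenine nucleotide content of the matrix. Slc25a23 stood at 29.6 and 28.3 CPM in control, 15.9 and 16.5 CPM at 0.1 µg/ml and 7.81 and 6.69 CPM at 0.5 µg/ml. It had the largest fall of the 41 members, 4.00-fold at the high dose (log2 fold change -2.00 ± 0.082, SE, adjusted p = 1.90e-08) and 1.79-fold at the low dose (-0.84 ± 0.074, SE, adjusted p = 2.30e-05), with no overlap between any 2 groups. Its relative Slc25a24 stood at 56.5 and 59.2 CPM in control, 89.7 and 83.9 CPM at 0.1 µg/ml and 90.5 and 88.2 CPM at 0.5 µg/ml. It rose by 0.63 ± 0.050 on the log2 scale (SE; adjusted p = 2.41e-06) at the high dose and by 0.59 ± 0.050 on the log2 scale (SE; adjusted p = 1.80e-05) at the low dose, and the doses did not differ by the test (difference 0.04 ± 0.049, adjusted p = 0.504). Slc25a25, the third of the group, stood at 37.1 and 27.9 CPM in control, 27.1 and 25.7 CPM at 0.1 µg/ml and 31.3 and 35.0 CPM at 0.5 µg/ml. Its first control library was higher than the other, and it did not pass the test against control at either dose. Its log2 fold change was 0.03 ± 0.11 (SE; adjusted p = 0.823) at the high dose and -0.30 ± 0.11 (SE; adjusted p = 0.0702) at the low dose. Without control replicate 1 it was higher at 0.5 µg/ml (0.25, adjusted p = 0.0222), and without control replicate 2 it was lower at 0.1 µg/ml (-0.51, adjusted p = 9.55e-04). At 0.1 µg/ml it was also called lower with upper quartile scaling (-0.34, adjusted p = 0.0438) and without a low-count filter (-0.31, 1.89e-05). Between the doses it rose by 0.33 (adjusted p = 0.0311), a call lost without replicate 1 at 0.1 µg/ml (adjusted p = 0.0625), replicate 2 at 0.1 µg/ml (0.123) or replicate 2 at 0.5 µg/ml (0.211), with upper quartile scaling (0.0564) and under all 3 limma settings (0.162 on log2(TPM + 1)). In TPM the ratio of Slc25a23 to Slc25a24 was 0.605 and 0.508 in control, 0.195 and 0.22 at the low dose and 0.0935 and 0.0866 at the high dose.

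Relatives of the uncoupling proteins, carriers named for their likeness to the proton leak proteins of brown fat, split in direction. Of 3 tested, 2 rose and 1 fell at 0.5 µg/ml (median log2 fold change 0.90), with 67.5% of all tested genes called. Slc25a30 stood at 15.0 and 15.8 CPM in control, 19.9 and 21.0 CPM at 0.1 µg/ml and 35.0 and 37.0 CPM at 0.5 µg/ml. It rose 2.34-fold at the high dose (log2 fold change 1.23 ± 0.061, SE, adjusted p = 7.79e-08) and by 0.41 ± 0.062 on the log2 scale (SE; adjusted p = 7.47e-04) at the low dose, a call lost with limma without a filter (0.32, adjusted p = 0.0706). Slc25a14, found mainly in brain, was low, at 3.63 and 3.53 CPM in control, 4.61 and 4.00 CPM at 0.1 µg/ml and 6.64 and 6.73 CPM at 0.5 µg/ml, and rose by 0.90 ± 0.12 on the log2 scale (SE; adjusted p = 9.52e-05) at the high dose. Its value at the low dose, 0.27 ± 0.12 (SE; adjusted p = 0.117), did not pass the test. Slc25a27, another carrier best known from brain, stood at 1.70 and 1.91 CPM in control, 1.19 and 1.20 CPM at 0.1 µg/ml and 0.481 and 0.902 CPM at 0.5 µg/ml, which rests on 21 to 96 counts per library. It fell by 1.36 ± 0.27 on the log2 scale (SE; adjusted p = 0.00152) at the high dose, or by 0.61 with limma on log2(TPM + 1), a scale that compresses low values. At the low dose its change of -0.60 ± 0.25 (SE; adjusted p = 0.0937) did not pass, but it did without replicate 1 or 2 at 0.5 µg/ml (adjusted p = 0.0460 and 0.0490), without a low-count filter (0.0281) and with only the 2 groups compared (0.0474). Between the doses it fell by 0.76 (adjusted p = 0.0407). That call was lost without replicate 1 at 0.1 µg/ml (log2 fold change -0.76, adjusted p = 0.117), replicate 2 at 0.1 µg/ml (-0.76, 0.0982) or replicate 1 at 0.5 µg/ml (-0.40, 0.239), and without replicate 2 at 0.5 µg/ml the value was -1.31. It was also lost with DESeq2 (-0.74, adjusted p = 0.0986) and under all 3 limma settings (-0.37 on log2(TPM + 1), adjusted p = 0.0692).

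All 3 tested carboxylate carriers were lower at 0.5 µg/ml (median log2 fold change -0.32), as were 33.1% of all tested genes. At 0.1 µg/ml 1 of the 3 was lower and the others did not pass, where 13.8% of all tested genes were lower. Slc25a1 exports citrate, the source of cytosolic acetyl-CoA for fatty acid and sterol synthesis. It stood at 269 and 274 CPM in control, 249.7 and 247 CPM at 0.1 µg/ml and 157 and 163 CPM at 0.5 µg/ml, so the low dose lay close to control and the high dose far below both. It fell by 0.76 ± 0.041 on the log2 scale (SE; adjusted p = 1.21e-07) at the high dose and by 0.13 ± 0.040 on the log2 scale (SE; adjusted p = 0.0334) at the low dose. The low-dose call was lost without control replicate 2 (log2 fold change -0.14, adjusted p = 0.0719), replicate 1 at 0.1 µg/ml (-0.15, 0.0809), replicate 2 at 0.1 µg/ml (-0.14, 0.0770), with the replicate block (adjusted p = 0.0516) and under all 3 limma settings (0.0594 on log2(TPM + 1)). Slc25a11, the oxoglutarate/malate exchanger of the malate-aspartate shuttle, stood at 89.3 and 93.4 CPM in control, 91.3 and 92.8 CPM at 0.1 µg/ml and 72.6 and 74.1 CPM at 0.5 µg/ml and fell by 0.32 ± 0.044 on the log2 scale (SE; adjusted p = 1.28e-04) at the high dose. At 0.1 µg/ml its libraries lay within the control range. The dicarboxylate carrier Slc25a10 stood at 75.8 and 70.5 CPM in control, 80.7 and 78.8 CPM at 0.1 µg/ml and 65.6 and 63.9 CPM at 0.5 µg/ml and fell by 0.18 ± 0.049 on the log2 scale (SE; adjusted p = 0.00958). Without control replicate 1 that value was -0.13 (adjusted p = 0.0654), and with upper quartile scaling -0.27.

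**Figure D3:**
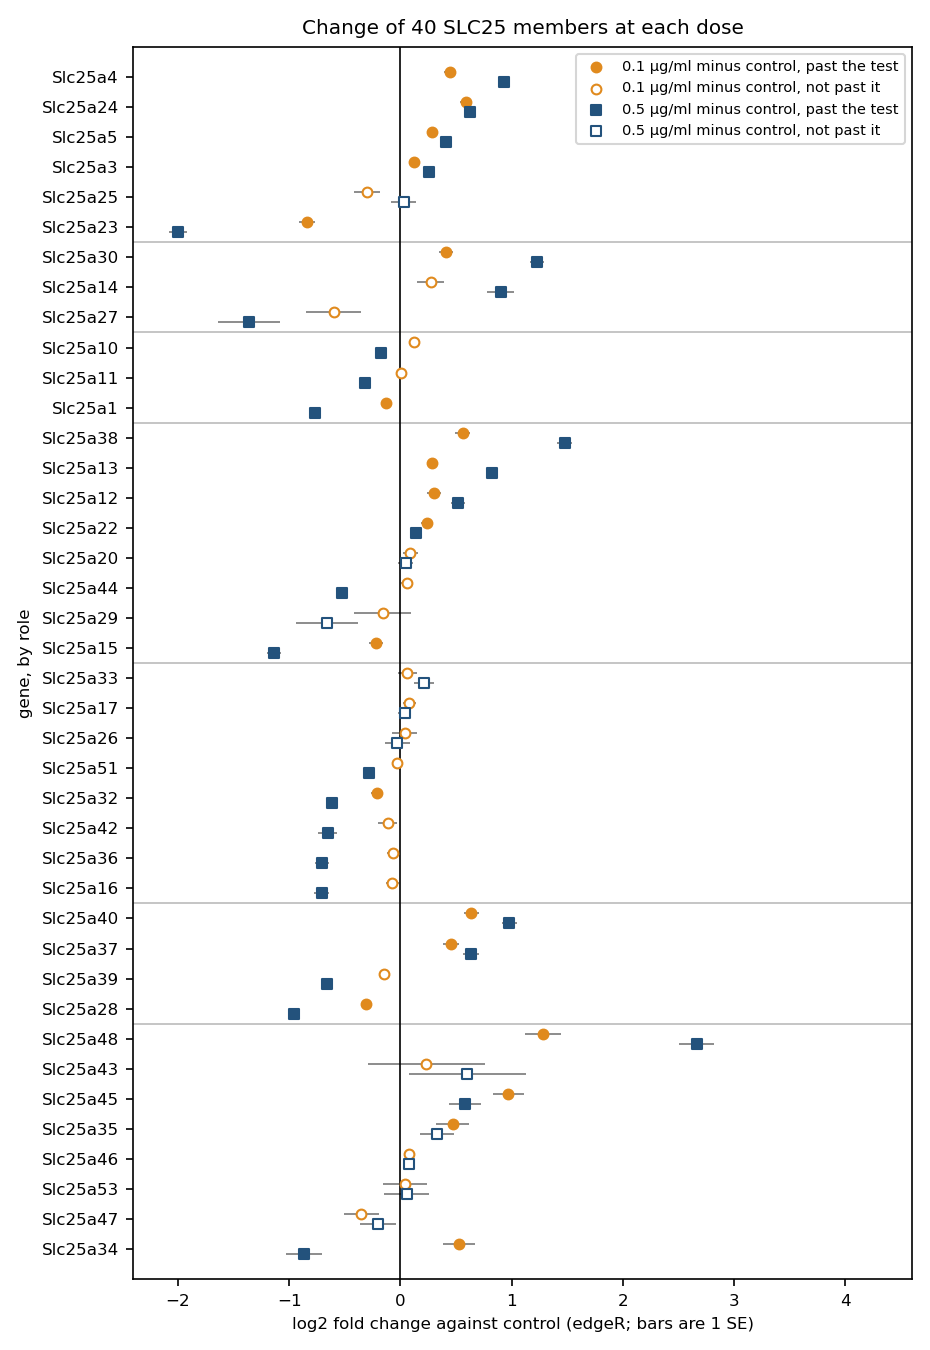
Log2 fold change against control of 40 of the 41 tested members at 0.1 µg/ml (orange circles) and 0.5 µg/ml (blue squares), with bars of 1 SE, grouped by role as in the map of levels; filled symbols passed the edgeR test. At 0.5 µg/ml values run from -2.00 for Slc25a23 to 2.66 for Slc25a48, and the 3 carboxylate carriers lie left of 0.

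The amino acid and acylcarnitine carriers moved in both directions. Of 8 tested, 4 rose, 2 fell and 2 did not pass at 0.5 µg/ml (median log2 fold change 0.09), with 67.5% of all tested genes called. At 0.1 µg/ml 4 rose, 1 fell and 3 did not pass (median 0.16), with 34.6% of all tested genes called. Slc25a38 imports glycine for the first step of heme synthesis. It stood at 13.3 and 13.0 CPM in control, 19.5 and 19.4 CPM at 0.1 µg/ml and 34.7 and 38.7 CPM at 0.5 µg/ml and rose 2.79-fold at the high dose (log2 fold change 1.48 ± 0.067, SE, adjusted p = 3.89e-08) and 1.48-fold at the low dose (0.56 ± 0.068, SE, adjusted p = 1.88e-04). The 3 groups did not overlap. Both aspartate/glutamate carriers, which work in the malate-aspartate shuttle and supply cytosolic aspartate, rose. Slc25a12 (aralar) stood at 30.8 and 34.8 CPM in control, 40.5 and 40.4 CPM at 0.1 µg/ml and 46.6 and 47.4 CPM at 0.5 µg/ml and rose by 0.52 ± 0.060 on the log2 scale (SE; adjusted p = 3.38e-05) at the high dose and 0.30 ± 0.060 on the log2 scale (SE; adjusted p = 0.00358) at the low dose. Without control replicate 1 the low-dose value was 0.20 (adjusted p = 0.0304). Between the doses it rose by 0.22, a call lost without replicate 2 at 0.5 µg/ml (adjusted p = 0.0652) and under all 3 limma settings (0.13 on log2(TPM + 1), adjusted p = 0.139). Slc25a13 (citrin), the isoform prominent in liver, stood at 61.8 and 60.2 CPM in control, 74.4 and 74.6 CPM at 0.1 µg/ml and 110.0 and 106 CPM at 0.5 µg/ml and rose by 0.82 ± 0.043 on the log2 scale (SE; adjusted p = 1.12e-07) and 0.29 ± 0.043 on the log2 scale (SE; adjusted p = 7.25e-04). In TPM the ratio of Slc25a12 to Slc25a13 was 0.532 and 0.586 in control, 0.591 and 0.595 at the low dose and 0.461 and 0.475 at the high dose. The low-dose values lay just above control, by less than the 2 control libraries differed, and the high-dose values lay below both groups. The promoter window of Slc25a13 is one of those printed with an E-box, as are the windows of Slc25a1, Slc25a15 and Slc25a36, which fell.

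The glutamate carrier Slc25a22 stood at 29.6 and 32.0 CPM in control, 37.2 and 35.5 CPM at 0.1 µg/ml and 33.8 and 34.0 CPM at 0.5 µg/ml. Its rise at the low dose, 0.24 ± 0.055 on the log2 scale (SE; adjusted p = 0.00825), was lost without control replicate 1 (log2 fold change 0.17, adjusted p = 0.0821) or replicate 1 at 0.1 µg/ml (0.19, 0.0910), and under all 3 limma settings (0.16 on log2(TPM + 1), adjusted p = 0.238). At the high dose its change of 0.14 ± 0.056 (SE; adjusted p = 0.0498) lay at the threshold. That call was kept without control replicate 2 and with RLE size factors, and lost when any other library was left out (log2 fold change 0.08 to 0.14, adjusted p = 0.0630 to 0.290) and under every other alternative. The carnitine-acylcarnitine carrier Slc25a20, which brings fatty acids in for oxidation, was at 35.2 and 36.4 CPM in control and 39.2 and 35.0 CPM at 0.5 µg/ml and did not pass the test. Slc25a44, a carrier of branched-chain amino acids, fell by 0.53 ± 0.053 on the log2 scale (SE; adjusted p = 1.30e-05) at the high dose. Slc25a29, for basic amino acids, had 26 to 63 counts per library. Its value of -0.66 ± 0.28 (SE; adjusted p = 0.0590) at 0.5 µg/ml did not pass, except without replicate 1 at 0.5 µg/ml (-1.04, adjusted p = 0.0240) and under some other settings.

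Slc25a15 exchanges ornithine and citrulline, a step of the route by which the small intestine makes citrulline. It stood at 152 and 157 CPM in control, 142 and 123 CPM at 0.1 µg/ml and 71.7 and 68.8 CPM at 0.5 µg/ml. Both high-dose libraries lay below every other library, and the gene fell 2.20-fold at 0.5 µg/ml (log2 fold change -1.14 ± 0.064, SE, adjusted p = 1.92e-07). At 0.1 µg/ml the value was -0.22 ± 0.063 (SE; adjusted p = 0.0230). That call was lost without control replicate 2 (-0.22, adjusted p = 0.0575) or replicate 2 at 0.1 µg/ml (-0.15, 0.0863), and without replicate 1 at 0.1 µg/ml the value was -0.34. It was also lost with limma without a filter (-0.26, adjusted p = 0.109). The enzymes on either side of this carrier had the largest falls among the 28 carrier-linked enzymes examined. Cps1, which makes carbamoyl phosphate in the matrix, stood at 1626 and 1578 CPM in control, 1044 and 1002 CPM at 0.1 µg/ml and 442 and 398 CPM at 0.5 µg/ml and fell by 1.93 ± 0.053 on the log2 scale (SE; adjusted p = 1.30e-09) at the high dose. Otc, which joins carbamoyl phosphate to ornithine, stood at 100.2 and 105 CPM in control, 96.6 and 92.5 CPM at 0.1 µg/ml and 31.9 and 29.2 CPM at 0.5 µg/ml and fell by 1.75 ± 0.056 on the log2 scale (SE; adjusted p = 3.65e-09). Oat, which makes ornithine in the intestine, stood at 1145 and 1104 CPM in control, 869 and 827 CPM at 0.1 µg/ml and 397 and 369 CPM at 0.5 µg/ml and fell by 1.55 ± 0.048 on the log2 scale (SE; adjusted p = 2.84e-09). At 0.1 µg/ml Cps1 and Oat fell by 0.65 and 0.41 on the log2 scale, and Otc, with -0.12, did not pass (adjusted p = 0.114). The enterocyte markers, whose sums are given above, fell over the same step from 0.1 to 0.5 µg/ml. From control to 0.1 µg/ml they went the other way, with 6 rising and 1 falling. Over that first step the log2 changes of Cps1, Oat and Slc25a15 were -0.65, -0.41 and -0.22. Goblet, Paneth, enteroendocrine and stem cell sums declined over both steps. What part any of these cell type shifts had in the values of the carrier and the enzymes was not tested.

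**Figure D4:**
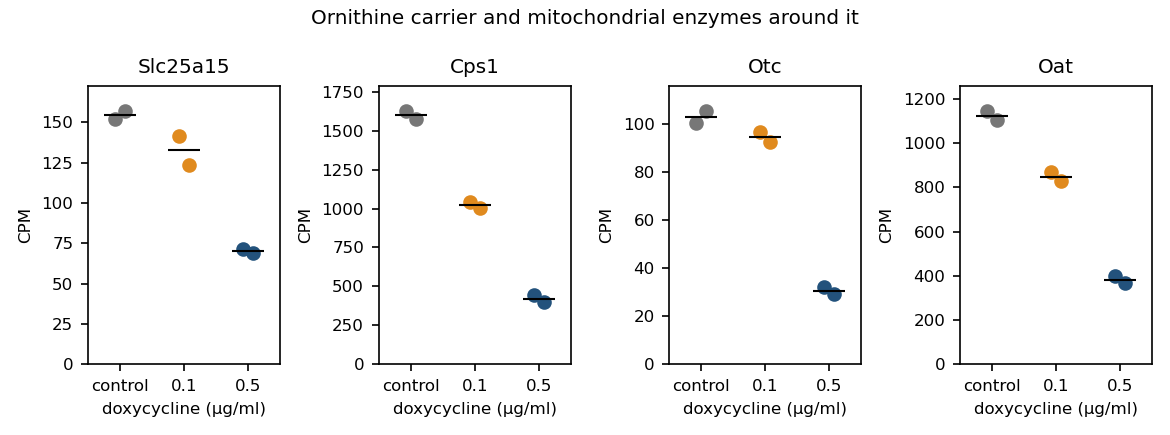
CPM by library (points) and group mean (lines) of the ornithine carrier Slc25a15 and of the matrix enzymes Cps1, Otc and Oat, each on its own axis from 0. In each panel both libraries at 0.5 µg/ml lie below all the others, as for Slc25a15 at 71.7 and 68.8 CPM.

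Among nucleotide and cofactor carriers more fell than rose at the high dose. Of 9 tested, 1 rose, 5 fell and 3 did not pass at 0.5 µg/ml (median log2 fold change -0.28). The called share of 66.7% was near that of all tested genes, 67.5%. At 0.1 µg/ml 1 fell and 8 did not pass (median -0.03), where 34.6% of all tested genes were called. The pyrimidine nucleotide carriers Slc25a33 and Slc25a36 parted. Slc25a36 stood at 97.1 and 100.3 CPM in control, 98.1 and 90.9 CPM at 0.1 µg/ml and 64.3 and 57.1 CPM at 0.5 µg/ml and fell by 0.70 ± 0.063 on the log2 scale (SE; adjusted p = 5.62e-06) at the high dose. Slc25a33 stood at 15.0 and 12.9 CPM in control, 14.4 and 14.8 CPM at 0.1 µg/ml and 16.9 and 15.6 CPM at 0.5 µg/ml and did not pass (0.21 ± 0.087, SE, adjusted p = 0.0520), except without control replicate 1 (0.32, adjusted p = 0.0120) and under a pair of other settings. Their TPM ratio, Slc25a33 to Slc25a36, was 0.314 and 0.261 in control, 0.286 and 0.315 at the low dose and 0.446 and 0.532 at the high dose. The other 4 that fell were Slc25a16 and Slc25a42, both tied to coenzyme A, the folate or FAD carrier Slc25a32, and the NAD carrier Slc25a51, with log2 fold changes of -0.71, -0.65, -0.61 and -0.28 at 0.5 µg/ml. The call for Slc25a51 was lost with limma without a filter (-0.21, adjusted p = 0.0508). Slc25a32 was the faller at 0.1 µg/ml, by 0.21, a call lost without control replicate 1 (-0.19, adjusted p = 0.0584) and under all 3 limma settings (-0.16 on log2(TPM + 1), adjusted p = 0.16). The peroxisomal cofactor carrier Slc25a17 and the S-adenosylmethionine carrier Slc25a26 had changes of 0.04 and -0.03 at the high dose and did not pass.

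In the iron and glutathione group each pair of near relatives moved apart, so that 2 of 4 rose and 2 fell at 0.5 µg/ml. Of all tested genes 67.5% were called at that dose. The mitoferrins import iron for heme and iron-sulfur clusters. Slc25a37 (mitoferrin-1), the form of developing red cells, stood at 80.4 and 92.1 CPM in control, 125 and 112 CPM at 0.1 µg/ml and 134 and 134 CPM at 0.5 µg/ml. It rose by 0.64 ± 0.070 on the log2 scale (SE; adjusted p = 2.42e-05) at the high dose and 0.46 ± 0.070 on the log2 scale (SE; adjusted p = 7.97e-04) at the low dose, a call lost with limma without a filter (0.35, adjusted p = 0.0686). Slc25a28 (mitoferrin-2), the widely expressed form, stood at 65.4 and 68.2 CPM in control, 54.6 and 53.0 CPM at 0.1 µg/ml and 34.1 and 34.7 CPM at 0.5 µg/ml and fell by 0.96 ± 0.046 on the log2 scale (SE; adjusted p = 6.40e-08) and 0.31 ± 0.045 on the log2 scale (SE; adjusted p = 5.48e-04). In TPM the ratio of Slc25a28 to Slc25a37 was 2.17 and 1.99 in control, 1.25 and 1.3 at the low dose and 0.748 and 0.733 at the high dose, so the order of the pair turned. Between the doses the rise of Slc25a37 was 0.18 (adjusted p = 0.0478). That call was lost without replicate 2 at 0.1 µg/ml (0.10, adjusted p = 0.292), replicate 1 at 0.5 µg/ml (0.18, 0.135), replicate 2 at 0.5 µg/ml (0.18, 0.150), with the replicate block (0.0717), with upper quartile scaling (0.13, 0.143) and under all 3 limma settings (0.16 on log2(TPM + 1), 0.132), and without replicate 1 at 0.1 µg/ml the value was 0.27.

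Slc25a39, which carries glutathione into the matrix, stood at 252 and 235 CPM in control, 217 and 224 CPM at 0.1 µg/ml and 161 and 149 CPM at 0.5 µg/ml. It fell by 0.65 ± 0.052 on the log2 scale (SE; adjusted p = 2.20e-06) at the high dose. At the low dose its change of -0.14 ± 0.051 (SE; adjusted p = 0.0550) did not pass, but it did without control replicate 2 (-0.21, adjusted p = 0.0212) and without replicate 1 or 2 at 0.5 µg/ml (-0.16, 0.0425 and 0.0421), and with RLE or upper quartile scaling, DESeq2 and limma with a filter. Its close relative Slc25a40 stood at 11.8 and 12.2 CPM in control, 19.3 and 18.0 CPM at 0.1 µg/ml and 23.4 and 24.0 CPM at 0.5 µg/ml and rose by 0.98 ± 0.067 on the log2 scale (SE; adjusted p = 7.97e-07) at the high dose and 0.64 ± 0.067 on the log2 scale (SE; adjusted p = 7.76e-05) at the low dose. The TPM of Slc25a39 was 40.0 and 36.6 times that of Slc25a40 in control, 21.5 and 22.7 times at the low dose and 13.2 and 11.6 times at the high dose, and Slc25a39 stayed the more abundant in every library. With 2 libraries a group, an exact test of such a ratio could not go below p = 0.333, so the ratios are given as values only.

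**Figure D5:**
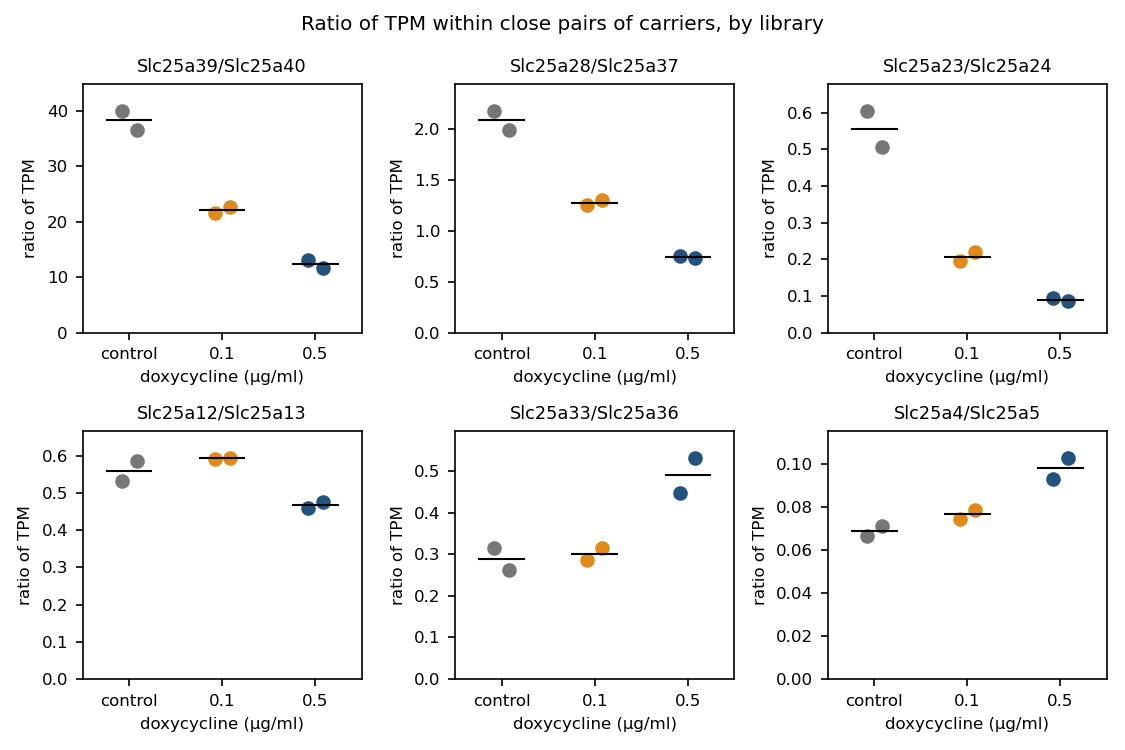
Ratio of TPM within 6 close pairs of carriers in each library (points) with the group mean (lines), against the doxycycline dose; each panel has its own linear axis from 0. The ratios Slc25a39/Slc25a40, Slc25a28/Slc25a37 and Slc25a23/Slc25a24 step down with no overlap between groups, for example from 2.17 and 1.99 to 0.748 and 0.733 for the mitoferrins.

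The remaining members have an unsettled substrate or sit apart from the rest. Of 8 tested, 2 rose, 1 fell and 5 did not pass at 0.5 µg/ml (median log2 fold change 0.20), with 67.5% of all tested genes called. At 0.1 µg/ml 4 rose and 4 did not pass (median 0.35), with 34.6% of all tested genes called. Slc25a48, a carrier linked to mitochondrial choline uptake, had the largest rise of the 41 members. It stood at 5.57 and 3.53 CPM in control, 10.4 and 11.8 CPM at 0.1 µg/ml and 29.1 and 28.6 CPM at 0.5 µg/ml, with no overlap between any 2 groups. It rose 6.34-fold at the high dose (log2 fold change 2.66 ± 0.16, SE, adjusted p = 2.40e-07) and 2.43-fold at the low dose (1.28 ± 0.16, SE, adjusted p = 2.41e-04). Slc25a46, an outer membrane relative involved in mitochondrial shape, was nearly level, at 62.4 and 62.9 CPM in control, 67.3 and 64.6 CPM at 0.1 µg/ml and 66.2 and 65.8 CPM at 0.5 µg/ml, and did not pass (0.07 ± 0.044, adjusted p = 0.16).

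A pair of orphan carriers was highest at the low dose. Slc25a34 stood at 4.15 and 4.67 CPM in control, 7.12 and 5.55 CPM at 0.1 µg/ml and 2.45 and 2.40 CPM at 0.5 µg/ml. Against control it fell at the high dose by 0.86 ± 0.16 on the log2 scale (SE; adjusted p = 8.83e-04), and from 0.1 to 0.5 µg/ml it fell by 1.39 (adjusted p = 3.83e-05; 0.91 with limma on log2(TPM + 1)). Its rise over control at 0.1 µg/ml, 0.53 ± 0.14 on the log2 scale (SE; adjusted p = 0.0178), was lost without control replicate 1 (0.43, adjusted p = 0.0982) or replicate 1 at 0.1 µg/ml (0.32, 0.188), and under all 3 limma settings (0.34 on log2(TPM + 1), 0.0766). Slc25a45 stood at 2.61 and 2.99 CPM in control, 5.96 and 4.97 CPM at 0.1 µg/ml and 4.08 and 4.30 CPM at 0.5 µg/ml. It rose by 0.97 ± 0.14 on the log2 scale (SE; adjusted p = 5.66e-04) at the low dose and by 0.58 ± 0.15 on the log2 scale (SE; adjusted p = 0.00549) at the high dose. The fall between the doses, 0.39 (adjusted p = 0.0311), was lost without replicate 1 at 0.1 µg/ml (-0.24, adjusted p = 0.257), replicate 1 at 0.5 µg/ml (-0.35, 0.134) or replicate 2 at 0.5 µg/ml (-0.43, 0.0850), with DESeq2 (-0.36, 0.113) and with limma without a filter (-0.42, 0.123). The rise of Slc25a45 at the low dose was lost with limma without a filter (0.76, adjusted p = 0.0541), and that at the high dose under all 3 limma settings (0.34 on log2(TPM + 1), adjusted p = 0.0640). The summed absorptive enterocyte markers were also highest at the low dose, and their part in this shape was not tested. Slc25a35 rose at 0.1 µg/ml by 0.47 ± 0.15 on the log2 scale (SE; adjusted p = 0.0331), a call kept without control replicate 2 and lost when any other library was left out (0.26 to 0.52, adjusted p = 0.0515 to 0.212), under all 3 limma settings (0.35 on log2(TPM + 1), 0.0940) and with only the 2 groups compared (0.46, 0.0510). With the high dose its change of 0.33 did not pass, except without control replicate 2 (0.53, adjusted p = 0.0119) and when no low-count filter was used (0.33, 0.0272). Slc25a43, Slc25a47 and Slc25a53 had at most 3.09 CPM in any library and did not pass the edgeR test in any of the 3 comparisons. With limma on log2(TPM + 1) Slc25a47 was lower at both doses (-0.29 and -0.30, adjusted p = 0.0238 and 0.0474).

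Family members with other symbols, and genes that work beside the carriers, were examined as background. Of Ucp1, Ucp2, Ucp3, Mtch1 and Mtch2, 3 were tested, 2 fell and 1 did not pass at 0.5 µg/ml (67.5% of all genes called; median log2 fold change -0.40). Ucp2, the uncoupling protein of epithelium and immune cells, stood at 438 and 426 CPM in control, 442 and 435 CPM at 0.1 µg/ml and 343 and 314 CPM at 0.5 µg/ml and fell by 0.40 ± 0.047 on the log2 scale (SE; adjusted p = 4.45e-05). Mtch2, an insertase of the outer membrane, stood at 256 and 259 CPM in control, 260.2 and 246 CPM at 0.1 µg/ml and 178 and 170.3 CPM at 0.5 µg/ml and fell by 0.56 ± 0.045 on the log2 scale (SE; adjusted p = 2.34e-06). Of 13 genes of the route that inserts carriers, 3 rose, 4 fell and 6 did not pass at 0.5 µg/ml (median 0.02), beside the same 67.5%. None passed with a change of 2-fold, where 27.1% of all tested genes did. The largest changes there were Agk (-0.61), Timm9 (-0.33) and Timm8b (0.29).

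Of 21 other tested transporters of the mitochondrial membranes, 8 rose, 5 fell and 8 did not pass at 0.5 µg/ml (median log2 fold change -0.01). Of all tested genes 67.5% were called. Sfxn3, a serine transporter, stood at 4.17 and 3.87 CPM in control, 6.32 and 5.87 CPM at 0.1 µg/ml and 14.0 and 13.3 CPM at 0.5 µg/ml and rose by 1.76 ± 0.099 on the log2 scale (SE; adjusted p = 1.84e-07). Slc8b1, the sodium/calcium exchanger that empties the matrix of calcium, stood at 6.16 and 5.01 CPM in control, 7.60 and 8.44 CPM at 0.1 µg/ml and 16.8 and 17.0 CPM at 0.5 µg/ml and rose by 1.60 ± 0.11 on the log2 scale (SE; adjusted p = 7.46e-07). Of the calcium-regulated carriers given above, Slc25a23 fell over the same comparison, Slc25a24 rose and Slc25a25 did not pass. A link to Slc8b1 was not tested.

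Of 28 enzymes that work beside the carriers, 10 rose, 8 fell and 10 did not pass at 0.5 µg/ml (median log2 fold change -0.06). At 0.1 µg/ml 12 rose, 6 fell and 10 did not pass. Of all tested genes 67.5% were called at 0.5 µg/ml and 34.6% at 0.1 µg/ml. For the malate-aspartate shuttle, its enzymes were named after their values were seen. Got1, the cytosolic aminotransferase, rose by 0.87 ± 0.040 on the log2 scale (SE; adjusted p = 4.65e-08) at the high dose, and the matrix form Got2 by 0.16 ± 0.042 on the log2 scale (SE; adjusted p = 0.00668). Mdh1 fell by 0.15 ± 0.048 on the log2 scale (SE; adjusted p = 0.0167), and Mdh2 did not pass (-0.06, adjusted p = 0.326). At the low dose Got1, Mdh1 and Mdh2 rose by 0.40, 0.17 and 0.31 (adjusted p = 5.83e-05, 0.0202 and 0.00126), so Mdh1 was higher at the low dose and lower at the high dose, and Got2 did not pass (0.11, adjusted p = 0.0810). Beside them stood the rises of Slc25a12 and Slc25a13 and the fall of Slc25a11 given above.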

How the data were processed

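RNA-seq of 6 organoid libraries was analysed from 2 tables. One deposited table holds expected counts, RSEM's estimate of the reads of each gene, often fractional. The other deposited table holds TPM, scaled by the authors per library, so that depth is lost. STAR 2.7.3a, RSEM 1.3.3 and the builds GRCm39 and mm10 are named per the submitters' processing notes; which build these tables used and the strand setting of the counting are not given in the sources used here. RSEM divides reads shared between genes, and 13 of 47 members had counts off whole numbers by more than 0.005; the Slc25a5 pseudogene held at most 2.23 counts.

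Symbols came from GENCODE M21 (52083 of 55416 identifiers, 94.0%). Counts were rounded, filtered by edgeR's filterByExpr (16975 genes kept) and scaled by TMM. The quasi-likelihood model of edgeR 4.0.16 (R 4.3.3) was fitted to all 6 libraries with group means, which left 3 residual degrees of freedom, and p-values were adjusted over all tested genes by Benjamini-Hochberg (two-sided, threshold 0.05). SEs came from the F statistic. The fit was tested on simulated data in which few genes changed and all genes shared the same spread. Far more genes were called in the real data, so that test does not give the error rate here. The 15 alternatives include limma 3.58.1 and DESeq2 1.42.0. Members and lists were chosen with earlier results of these data known. Values by library are given for the 6 members highest in control, members called at 0.5 µg/ml with a change of at least 2-fold and no overlap or called at 0.1 µg/ml with that change, members called in opposite directions over the 2 dose steps, and close pairs. Of each other list, the 3 called genes of at least 5 CPM in a group with the largest changes are named. Library values of further members, and further genes, were chosen after they were seen. With 2 libraries against 2, an exact test of a single value cannot go below p = 0.333. Some genes covered by these rules, 1 of the members among them, are not reported here by name, but remain in the counts.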

Additional observations from a re-analysis of the deposited data

How the results depend on the processing

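The number of members called at 0.1 µg/ml against control was 20, and 10 with limma on log2(TPM + 1) without a filter. Under that setting 1484 of all 28962 tested genes were called higher and 1036 lower. With edgeR 3531 of 16975 were called higher and 2350 lower. The cause of the lower count was not tested. All other alternatives left the 3 counts of called members within 1.5 times. Leaving out 1 library gave 29 to 31 called members at 0.5 µg/ml against control (30 with all libraries), 15 to 20 at 0.1 µg/ml (20) and 24 to 29 between the doses (29). No member called with all libraries changed sign under any of the 15 alternatives. Of the 30 members called at 0.5 µg/ml, 26 kept the call under all 15 alternatives, as did 10 of 20 at 0.1 µg/ml and 21 of 29 between the doses. The labels give the groups the same replicate numbers, but same-numbered libraries did not deviate together (correlations of -0.039, 0.0767 and 0.010 across 16975 genes, which are not independent). With the replicate block 29, 19 and 28 members were called in the 3 comparisons. The calls lost were Slc25a22 at 0.5 µg/ml, Slc25a1 at 0.1 µg/ml and Slc25a37 between the doses. Of all 16975 tested genes the block called 5707 higher and 5455 lower at 0.5 µg/ml. It called 3217 higher and 2048 lower at 0.1 µg/ml, and 4869 higher and 4738 lower between the doses.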
